A study of Mus musculus with 120 samples.

Results

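Clostridia_UCG-014_unclassified and Clostridia_vadinBB60_group_unclassified are 2 genus-level names in the taxonomy that the authors gave to bacterial 16S rRNA gene sequences from the mouse gut. The members were chosen by taxon name: every amplicon sequence variant, that is every distinct 16S sequence in the deposited table, whose Genus was either of these names. This gave 732 of the 13844 variants. UCG-014 holds 408 of them with 36089 counts, which is 0.472% of the 7648060 counts of the series, and vadinBB60 holds 324 with 57486 counts, or 0.752%. Both names stop at an order of the class Clostridia, phylum Firmicutes, and no variant of either has a finer name. Within each genus the variants are numbered here by summed count, from U1 to U408 in UCG-014 and from V1 to V324 in vadinBB60. The pair was picked with earlier results of these data known, among them a light-cycle call of vadinBB60 in the colon with antibiotics, so that contrast is described below without a test.

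Clostridia are mostly anaerobic, often spore-forming bacteria, and on ordinary chow they make up a large part of the bacteria of the mouse colon and cecum, where many of them ferment fibre and other carbohydrates to short-chain fatty acids. Many lineages of the class are known mainly from 16S sequences recovered from samples. The names that begin with vadin come from 16S clones of an anaerobic digester that was fed vinasse, a residue of distillation. No physiology is assigned to either genus here, since the taxonomy table gives none.

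The study asked how environmental light-dark cycles relate to the microbiome of the colon and the cecum. C57BL/6N mice aged 10 weeks were acclimatised for 7 days, caged singly and held for 42 days under 1 of 5 light cycles named by their hours of light and dark: LD0/24, LD8/16, LD12/12, LD16/8 and LD24/0. Mice on chow received sterilised feed and water, and the antibiotics mice received the same feed with a cocktail of broad-spectrum antibiotics that the design places in the drinking water and the sample labels call an infusion. The design names 240 mice, 24 for each diet and light cycle, and 120 samples were analysed here, 59 of colonic and 61 of cecal content. They form 20 groups of 5 to 7 samples by site, diet and light cycle. The 4 combinations of site and diet hold 30 colon samples on chow, 29 colon samples with antibiotics, 31 cecum samples on chow and 30 cecum samples with antibiotics. The labels do not say which colon and cecum samples share a mouse.

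The values are counts of sequencing reads per variant and sample, with sample totals between 39157 and 73076. No count of 1 occurs in the table, so a variant at 0 was either absent from a library or fell below the smallest listed count of 2, and no detection limit is given for it. A share is a percentage of all counts of a sample, so fewer bacteria of one genus and more of all the others cannot be told apart. Read counts without molecular identifiers are not independent molecules, and p-values measure the spread between these samples. A second layer of structure touches several results. From 381 low and even variants outside the 2 genera, 86 of the libraries were clustered into 13 sets of at most 8 libraries, a limit set in the clustering, and 34 libraries, among them every cecum library on chow, could not be placed. Reads of the variants of named reagent and environmental genera made up 2.19% of counts on average in colon chow libraries, 2.67% in colon antibiotics libraries, 2.20% in cecum antibiotics libraries and 0.0223% in cecum chow libraries. No set held both diets of 1 site or both sites of 1 diet, so set of libraries and diet, or set and site, cannot be told apart by a fixed term.

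The levels of the 2 genera ran in opposite directions across diets. On chow, UCG-014 took 1.23% ± 2.07 of counts in the colon (SD, n = 30) with a lowest value of 0.0460%, a median of 0.703% and a highest of 11.4%. In the cecum on chow it took 0.654% ± 0.486 (SD, n = 31), with a lowest value of 0.0409%, a median of 0.469% and a highest of 1.89%. It was thus found in every chow library. With antibiotics UCG-014 took 0.0310% ± 0.0324 in the colon (SD, n = 29) and 0.0221% ± 0.0199 in the cecum (SD, n = 30), with a median of 0.0169% at each site and highest values of 0.0911% and 0.0674%. It was listed at 0 in 6 colon and 3 cecum libraries with antibiotics. The diets overlapped only at the bottom of the chow range: 20 of 29 colon libraries and 24 of 30 cecum libraries with antibiotics lay below the lowest chow library of their site.

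For vadinBB60 the order was turned. It took 0.180% ± 0.210 of counts in the colon on chow (SD, n = 30; lowest 0.0204%, median 0.101%, highest 0.977%) and 0.215% ± 0.178 in the cecum on chow (SD, n = 31; lowest 0.00601%, median 0.171%, highest 0.715%). With antibiotics it took 0.768% ± 1.14 in the colon (SD, n = 29; lowest 0.0697%, median 0.327%, highest 5.21%) and 1.81% ± 1.71 in the cecum (SD, n = 30; lowest 0.0172%, median 1.41%, highest 6.66%). It was present in all 120 libraries. The diets overlapped more than for UCG-014: 6 of 29 colon libraries and 21 of 30 cecum libraries with antibiotics lay above the highest chow library of their site, and 20 and 25 lay above the chow mean.

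**Figure D1:**
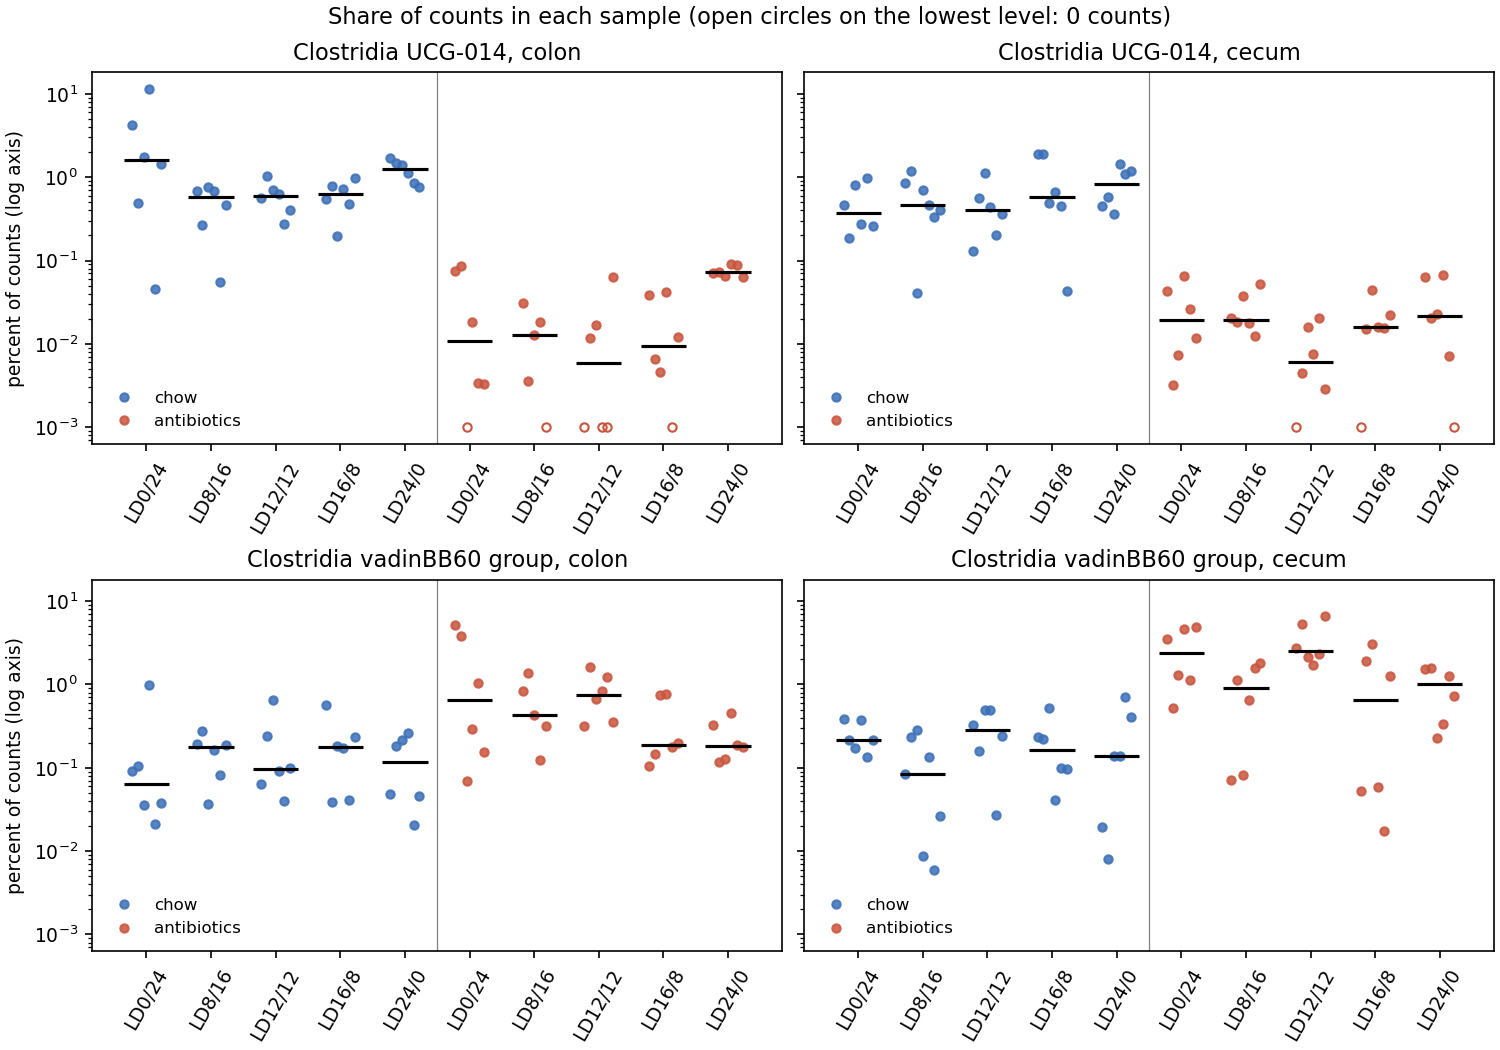
Percent of counts of each genus in every sample (log axis) by site, diet (blue chow, red antibiotics) and light cycle, with a bar at each group's median and open circles on the lowest level for samples listed at 0. Over all light cycles UCG-014 has a chow median of 0.703% in the colon and 0.469% in the cecum. With antibiotics it lies below 0.1% at both sites, while vadinBB60 is higher with antibiotics, most clearly in the cecum.

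The plot of shares by sample shows the exchange of places. By mean share UCG-014 stood 9th among the 376 genera detected in the colon on chow and 46th among 313 with antibiotics, and 19th of 369 and 65th of 311 in the cecum. The places of vadinBB60 were 49th and 9th in the colon, and 41st and 5th in the cecum. The whole class Clostridia fell from 23.1% ± 16.6 of counts on chow to 1.90% ± 1.34 with antibiotics in the colon (SD, n = 30 and 29), and from 22.8% ± 15.2 to 2.80% ± 1.81 in the cecum (SD, n = 31 and 30). Within the class, UCG-014 went from 5.23% of the Clostridia counts to 1.67% in the colon and from 2.89% to 0.778% in the cecum. The share of vadinBB60 within the class went from 0.784% to 39.7% in the colon and from 0.952% to 64.9% in the cecum, so that most Clostridia reads of the cecum with antibiotics came from this 1 genus.

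Antibiotics were compared with chow in each site with edgeR's quasi-likelihood test, with light cycle as a covariate and Benjamini-Hochberg adjustment over all genera. UCG-014 fell by 5.25 ± 0.53 on the log2 scale in the colon (SE, adjusted p = 9.80e-14, 39.7-fold between the means) and by 4.93 ± 0.48 in the cecum (SE, adjusted p = 1.06e-14, 29.6-fold). All 29 colon and all 30 cecum libraries with antibiotics lay below the chow mean. By contrast, vadinBB60 rose by 1.75 ± 0.42 in the colon (SE, adjusted p = 0.000133, 4.27-fold) and by 2.88 ± 0.44 in the cecum (SE, adjusted p = 2.43e-08, 8.42-fold). These calls stand against a background in which most genera changed: 81.0% of the 258 genera tested in the colon passed an adjusted p of 0.05, 43 upward and 166 downward, and 91.4% of 255 passed in the cecum, 85 upward and 148 downward. A call by itself therefore says little about either genus, and with this scaling the direction of vadinBB60 was the less common one.

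The scale of these changes depends on what the counts are set against, since the median genus fell by 3.62 in the colon and by 2.87 in the cecum when total counts set the scale. Relative to that median, UCG-014 stood at -1.63 and -2.07, and vadinBB60 at 5.37 and 5.75. The other 3 scalings kept the direction of both genera in both sites, with values for UCG-014 from -3.08 to -4.19 in the colon and from -4.31 to -4.59 in the cecum, and for vadinBB60 from 3.51 to 4.00 and from 3.31 to 3.87. The share of called genera that rose was less stable. It was 20.6% in the colon with total counts, 35.6% with TMMwsp factors, 33.3% in DESeq2 and 53.5% with limma on centred log-ratios, against 36.5%, 38.8%, 40.2% and 45.5% in the cecum.

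**Figure D2:**
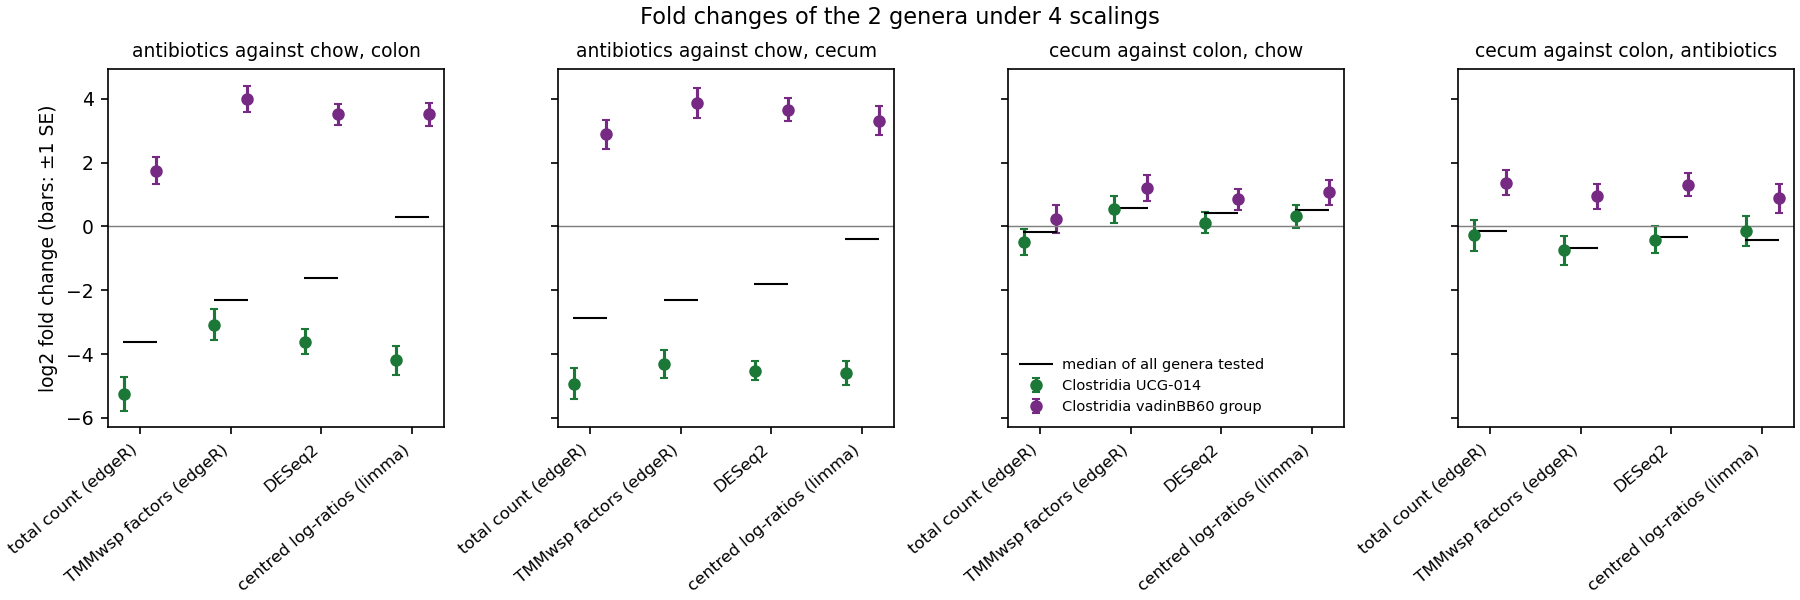
Log2 fold changes of UCG-014 (green) and vadinBB60 (violet) with bars of 1 SE under 4 scalings in 4 comparisons, with a black dash at the median of all genera tested. In both diet comparisons UCG-014 lies below the median and below 0, and vadinBB60 above both, under each scaling. Between the sites on chow UCG-014 crosses 0. For vadinBB60 the cecum lies above the colon there, by 0.22 with total counts and 1.20 with TMMwsp factors. It does so by 0.85 in DESeq2 and 1.06 with centred log-ratios, and the difference passes with all of these except total counts.

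Other Clostridia of the gut behaved like UCG-014 in these tests and not like vadinBB60. A list of 53 names of other Clostridia, 50 of them in the table, was read beside the 2 genera. Of the 46 list genera tested in the colon 44 fell, and of the 45 tested in the cecum 42 fell, beside 165 of 256 and 147 of 253 for all genera tested other than UCG-014 and vadinBB60. With TMMwsp factors 38 and 41 list genera fell, with centred log-ratios 30 and 38, and in DESeq2 33 and 40 were lower at an unadjusted p under 0.05. No list genus rose in edgeR's test in either site (adjusted p under 0.05, and 0 in each site at an unadjusted p under 0.05 as well). With TMMwsp factors 1 rose in the colon, in DESeq2 1 was higher there at an unadjusted p under 0.05, and with centred log-ratios 3 rose there, while in the cecum 0 did so under these 3. The median change of the list was -5.13 in the colon and -5.30 in the cecum, beside -3.62 and -2.87 for all genera tested. It was -3.14 and -4.90 with TMMwsp factors, beside -2.32 and -2.29, and -2.10 and -3.07 with centred log-ratios, beside 0.30 and -0.39. Among these, 6 list genera in the colon and 7 in the cecum were at 0 in every library of a diet. With genera of that kind set to 3 counts over the diet, the medians were -5.13 and -5.67 for the list and -3.96 and -3.10 for all genera.

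The 3 list genera with the largest share on chow show the size of that fall. Lachnospiraceae_NK4A136_group went from 8.90% ± 10.2 to 0.214% ± 0.110 in the colon (SD, n = 30 and 29; fell by 5.27 on the log2 scale, edgeR adjusted p = 4.20e-20) and from 7.52% ± 8.47 to 0.183% ± 0.122 in the cecum (SD, n = 31 and 30; fell by 5.30, edgeR adjusted p = 1.37e-16). Lachnospiraceae_unclassified fell in both sites, with log2 changes of -5.50 and -6.39 (edgeR adjusted p = 2.12e-16 and 5.25e-17). The Eubacterium xylanophilum group fell too, with -5.90 and -5.24 (edgeR adjusted p = 1.76e-13 and 5.18e-09). The changes of UCG-014, -5.25 and -4.93, were of the same order.

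The ratio of vadinBB60 to UCG-014 within a library does not depend on how its counts are scaled and is given as a description. On the log2 scale, with 0.5 added to each count, its median was -2.46 in the colon and -1.82 in the cecum on chow, and 4.97 and 6.21 with antibiotics. Counts of vadinBB60 exceeded those of UCG-014 in 3 of 30 colon and 7 of 31 cecum libraries on chow. With antibiotics they did so in 29 of 29 and 30 of 30. The lowest ratio with antibiotics was 0.67 in the colon, in a group, LD24/0, whose median of 1.27 was the lowest of the antibiotics groups, and 0.13 in the cecum. Where UCG-014 had few or 0 counts the ratio depends on the count added. Its highest value in the cecum with antibiotics was 11.89 with 0.5 added and 10.89 with 1 added.

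The sites differed less than the diets. On chow, UCG-014 in the cecum differed from the colon by -0.49 (95% interval -1.27 to 0.28, edgeR adjusted p = 0.355) and vadinBB60 by 0.22 (95% interval -0.64 to 1.08, adjusted p = 0.762). Of 272 genera tested between sites on chow 43.4% passed, 31.4% of them upward. The call depended on the scaling. With TMMwsp factors, DESeq2 and centred log-ratios vadinBB60 was higher in the cecum by 1.20, 0.85 and 1.06 (adjusted p = 0.0100, 0.0218 and 0.0158), UCG-014 changed sign to 0.53, 0.12 and 0.32 (adjusted p = 0.282, 0.809 and 0.492), and 51.0%, 44.4% and 59.7% of calls were upward. Every cecum library on chow lay within or below the colon range for both genera.

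With antibiotics, vadinBB60 was higher in the cecum than in the colon by 1.37 ± 0.39 (SE, edgeR adjusted p = 0.00213, 2.35-fold). Of 30 cecum libraries 20 exceeded the colon mean and 2 exceeded the colon maximum. UCG-014 differed by -0.29 (95% interval -1.23 to 0.66, adjusted p = 0.720). In this comparison 46.0% of 215 genera passed, 56.6% of them upward, against 46.5%, 61.3% and 41.7% upward with TMMwsp factors, DESeq2 and centred log-ratios. The call of vadinBB60 held with the first 2 of these (0.94 and 1.30, adjusted p = 0.0387 and 0.00102) and was lost with centred log-ratios (0.88, adjusted p = 0.0933). In the latter, with set of libraries as a random block, the difference was 0.55 (adjusted p = 0.638). Whether the effect of antibiotics itself differed between sites was tested as an interaction. The rise of vadinBB60 was larger in the cecum by 1.05 (95% interval -0.08 to 2.17, adjusted p = 0.142) and the value for UCG-014 was 0.30 (95% interval -0.94 to 1.53, adjusted p = 0.892), both short of the threshold that 42.9% of 322 genera passed. The directions depended on the scaling: with TMMwsp factors the values were -0.48 for vadinBB60 (adjusted p = 0.568) and -1.76 for UCG-014 (adjusted p = 0.0113, past the threshold), and with centred log-ratios they were 0.04 (adjusted p = 0.948) and -0.23 (adjusted p = 0.741). Of the genera passing, 73.2% were upward, against 46.9% with TMMwsp factors and 32.5% with centred log-ratios.

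Light cycle was examined within each site and diet. In the colon on chow the shares of UCG-014 under LD0/24 were 4.23%, 0.495%, 1.77%, 11.4%, 0.0460% and 1.43% in replicates 1 to 6. Under LD24/0 they lay between 0.770% and 1.68% with a median of 1.26%, and under LD12/12 between 0.276% and 1.05% with a median of 0.592%. LD0/24 thus held both the highest and the lowest library of the colon on chow, and its range covered every other light cycle. LD8/16 had a median of 0.572% and LD16/8 of 0.631%. For any difference between light cycles UCG-014 passed (edgeR adjusted p = 0.0157), as did 22.1% of 222 genera. Against LD12/12, LD0/24 was higher by 2.42 ± 0.79 (SE, adjusted p = 0.0736), a contrast that 1.80% of the genera passed.

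That call rested on few libraries. Without replicate 4 of LD0/24 the adjusted p for any light cycle was 0.233, and without any other single library it stayed under 0.05, with a lowest value of 0.00335. It was 0.577 with set of libraries as a block, the libraries of LD0/24 replicates 1 to 4 and 3 of LD24/0 being in 1 set. That fit tests fewer differences than the main test. No set links LD0/24, LD16/8 or LD24/0 with LD8/16 or LD12/12, so LD0/24 could not be compared with LD12/12 in it. The library of LD0/24 replicate 4 was also the highest of the colon on chow for vadinBB60, at 0.977%. It held 94 variants of UCG-014, of which 60 occurred in no other sample and made up 20.8% of its UCG-014 counts, and 32 variants of vadinBB60. Clostridia were 39.4% of its counts and UCG-014 28.9% of these, while its total of 56993 lay within the range of the other colon samples.

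For vadinBB60 in the colon on chow, and for both genera in the other site and diet combinations, no tested light-cycle difference of either genus passed in edgeR. In the colon on chow vadinBB60 had an adjusted p of 0.993 for any light cycle, and its difference between LD0/24 and LD12/12 was 0.11 with a wide 95% interval of -1.68 to 1.89. UCG-014 in the colon with antibiotics had 0.305, where 31.9% of 144 genera passed. In the cecum on chow the values were 0.911 for UCG-014 and 0.900 for vadinBB60, where 15.7% of 185 genera passed. In the cecum with antibiotics they were 0.738 and 0.212, where 17.7% of 158 genera passed. For vadinBB60 there, group medians were 2.42% under LD0/24, 0.897% under LD8/16, 2.55% under LD12/12, 0.660% under LD16/8 and 0.999% under LD24/0. The LD12/12 libraries lay between 1.69% and 6.66%, and those of LD16/8 between 0.0172% and 3.03%, so even the groups with the highest and the lowest median overlapped. Diet by light interactions did not pass for UCG-014 or vadinBB60 in the colon (adjusted p = 0.860 and 0.725, where 11.6% of 258 genera passed) or in the cecum (adjusted p = 1 for both, where 11.0% of 255 passed).

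In the colon with antibiotics the light-cycle values of vadinBB60 are given as a description only. Under LD0/24 the 6 libraries held 5.21%, 3.86%, 0.0697%, 0.293%, 1.03% and 0.155%. The medians of the other light cycles were 0.425% under LD8/16, 0.756% under LD12/12, 0.187% under LD16/8 and 0.182% under LD24/0. The highest library outside LD0/24 held 1.64%, under LD12/12. LD0/24 thus held the lowest library and the highest ones, and the 2 highest were replicates 1 and 2, which fell into 1 set with the 6 LD24/0 libraries. Those LD24/0 libraries held from 0.116% to 0.456%. The part of the set in these values was not tested.

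The 2 genera differed in how their variants were spread over diets. Of 408 UCG-014 variants 366 occurred only on chow, 9 only with antibiotics and 33 in both. Of 324 vadinBB60 variants 132 occurred only on chow, 143 only with antibiotics and 49 in both. The 49 shared variants held 95.4% of the vadinBB60 counts with antibiotics and 57.4% of those on chow, so nearly all vadinBB60 reads with antibiotics came from sequences also listed in chow samples. Rare variants dominated the lists: 279 of UCG-014 and 195 of vadinBB60 were found in 1 sample. The 24 UCG-014 and 37 vadinBB60 variants found in at least 10 samples held 60.5% and 87.4% of the counts of their genus. The sites shared most reads, since variants found in both sites, 103 and 99, held 85.4% and 94.8% of the counts.

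**Figure D3:**
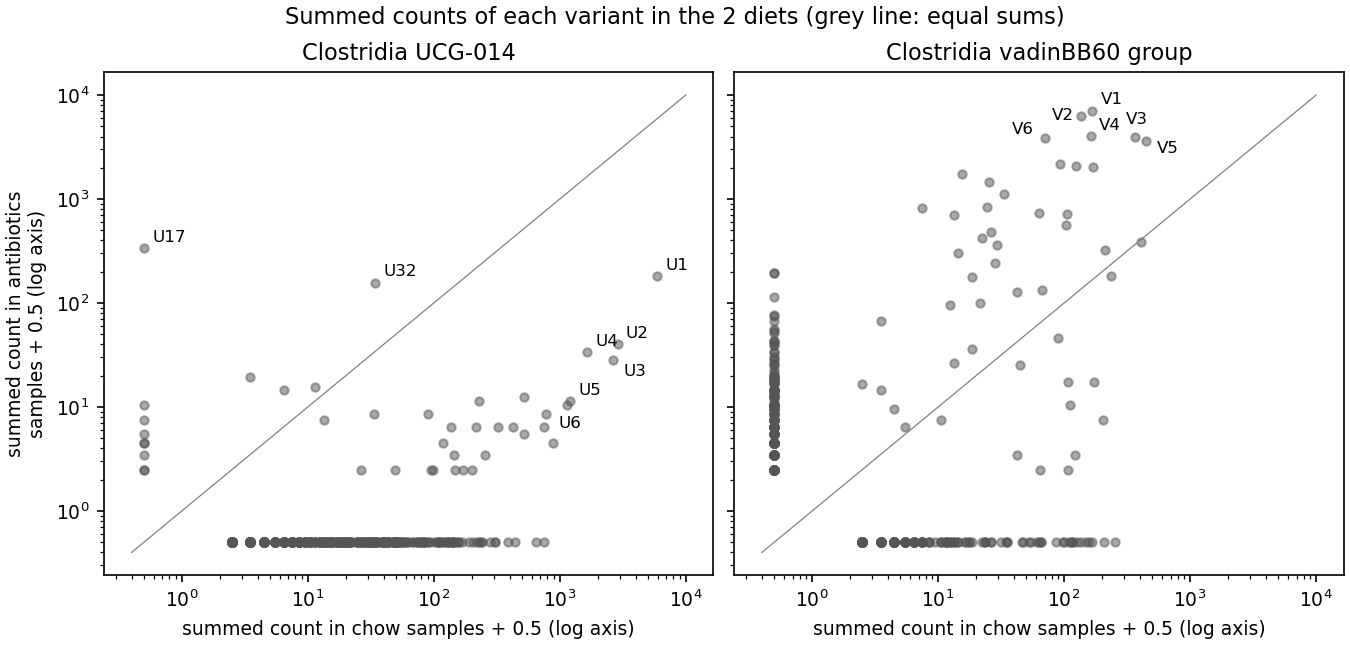
Summed count of each variant over the chow samples (x) and the antibiotics samples (y), each plus 0.5 on log axes, with a grey line where both sums are equal. Apart from U17 and U32, the UCG-014 variants with many counts lie far below the line, whereas vadinBB60 variants lie on both sides, with V1 to V6 above it.

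Single variants were tested in the same way over all variants of the table. A variant passed the filter only with 3 counts in at least 5 samples, often through the diet, site or light cycle where it was high, so the counts of calls that follow describe the variants tested and not all members. In the colon 87.0% of all 1220 variants passed, 124 higher and 938 lower with antibiotics. All 34 UCG-014 variants tested passed there, 33 of them lower, and 21 of 31 vadinBB60 variants, 10 higher and 11 lower. In the cecum 95.0% of 1244 variants passed, 294 higher and 888 lower. All 25 UCG-014 variants passed there, 24 of them lower, and 35 of 43 vadinBB60 variants, 16 higher and 19 lower. The median log2 change of the UCG-014 variants was -4.05 in the colon and -4.24 in the cecum. For all variants tested it was -4.05 and -3.89, so the fall of UCG-014 variants was near that of all variants. Among the vadinBB60 variants that passed, the fitted sign went against the order of the mean shares for 1 in the colon (V35) and 2 in the cecum (V15 and V17). V35 and V15 were picked out after their values were seen. The rise of vadinBB60 as a genus thus went with both higher and lower variants among those tested. A variant at 0 in every library of a diet could be called in a single direction only. With TMMwsp factors 13 were higher and 7 lower in the colon, and 17 and 17 in the cecum. With the stricter filter 4 were higher and 0 lower in the colon, and 6 and 1 in the cecum. In the plot of summed counts, points of vadinBB60 lie on both sides of the line.

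The variants that carried UCG-014 on chow fell with antibiotics. U1, with 6094 counts the most abundant, was detected in 22 of 30 colon and 13 of 31 cecum libraries on chow and in 10 of 29 and 12 of 30 with antibiotics. Its highest share was 2.32% on chow and 0.0284% with antibiotics. It fell by 4.82 ± 1.00 in the colon (SE, edgeR adjusted p = 1.39e-05) and by 3.06 ± 1.15 in the cecum (SE, adjusted p = 0.0101). U3, found in 25 colon and 22 cecum libraries on chow and in 2 and 3 with antibiotics, fell with log2 changes of -6.10 and -6.71 (edgeR adjusted p = 4.99e-08 and 4.12e-08). The log2 changes of U2 were -5.90 and -5.23, and those of U4 were -5.82 and -4.14, all past the threshold.

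V2 was among the vadinBB60 variants with the smallest p in both sites. It had 6390 counts in all, was detected in 7 of 30 colon libraries on chow and 17 of 29 with antibiotics, and reached 0.0326% and 0.726% there. In the cecum it was detected in 1 of 31 libraries on chow and 16 of 30 with antibiotics, where it reached 3.61%. It rose by 4.44 ± 1.05 in the colon (SE, edgeR adjusted p = 9.36e-05) and by 7.30 ± 0.97 in the cecum (SE, adjusted p = 9.06e-10). V1, the most abundant with 7273 counts, rose by 2.42 ± 1.00 and by 5.78 ± 0.99 (SE, edgeR adjusted p = 0.0210 and 3.53e-07), and V4 by 3.43 ± 1.06 and by 5.07 ± 1.04 (SE, edgeR adjusted p = 0.00224 and 9.93e-06). V14 rose by 4.98 in the colon (edgeR adjusted p = 1.05e-06), from detection in 2 of 30 libraries to 12 of 29, and was listed at 0 in all 31 cecum libraries on chow and found in 17 of 30 with antibiotics.

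Other variants of the same genus took the opposite course. V27, detected in 13 of 31 cecum libraries on chow with up to 0.0666%, was listed at 0 in all 59 antibiotics libraries. V29, in 6 colon and 7 cecum libraries on chow, and V46, in 2 and 10, were also at 0 in all of them. V17, one of the most abundant on chow, was found in 4 of 30 colon and 5 of 31 cecum libraries on chow and in 3 of 29 and 3 of 30 with antibiotics. Its mean share was 0.0141% and 0.00518% in the colon but 0.00729% and 0.0155% in the cecum, where the fitted log2 change of -3.14 (edgeR adjusted p = 0.00303) went against the means, so no direction is given for it. V5 did not pass in either site, at 0.59 ± 1.15 and 1.68 ± 1.79 (SE, edgeR adjusted p = 0.652 and 0.360), and V3 passed in the cecum only (4.28 ± 1.68, adjusted p = 0.0137, and 2.26 ± 1.21 in the colon, adjusted p = 0.0759), a difference between sites that was not tested.

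The remaining reads of UCG-014 with antibiotics came from few sequences. It had 1000 counts over the 59 libraries, and U17, U1, U32 and U2 held 71.6% of them. U17 had 339 counts and was found in 8 libraries of the series, all in the colon with antibiotics: the 6 libraries of LD24/0 and replicates 1 and 2 of LD0/24. These 8 are exactly 1 set of libraries built from variants outside the genus. The share of U17 in them lay between 0.0582% and 0.0881%, a narrow range, and it was listed at 0 in the other 112 libraries. U17 was the 1 UCG-014 variant called higher with antibiotics in the colon.

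U32 was the 1 UCG-014 variant called higher with antibiotics in the cecum, and it was unevenly spread over sets. It was found in 8 of 8 libraries of a set of cecum LD16/8 and LD24/0 libraries with antibiotics, at 0.0117% to 0.0328%, in 6 of 8 libraries of another set of cecum antibiotics libraries, at 0.00457% to 0.0120%, and in 0 of the 8 libraries of the remaining full set. In a set that joins 4 cecum antibiotics libraries with 4 colon chow libraries of LD8/16 it was found in 1 of the first (0.0206%) and 3 of the second (0.00643% to 0.0156%). It was also found in 3 of 8 libraries of another set of colon chow libraries (0.00317% to 0.00820%) and in 1 of 8 of a further one (0.00301%). It was at 0 in all cecum chow and all colon antibiotics libraries. U1, by contrast, occurred in 3 of the 8 libraries with U17 and in 7 of the other 21 colon antibiotics libraries.

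**Figure D4:**
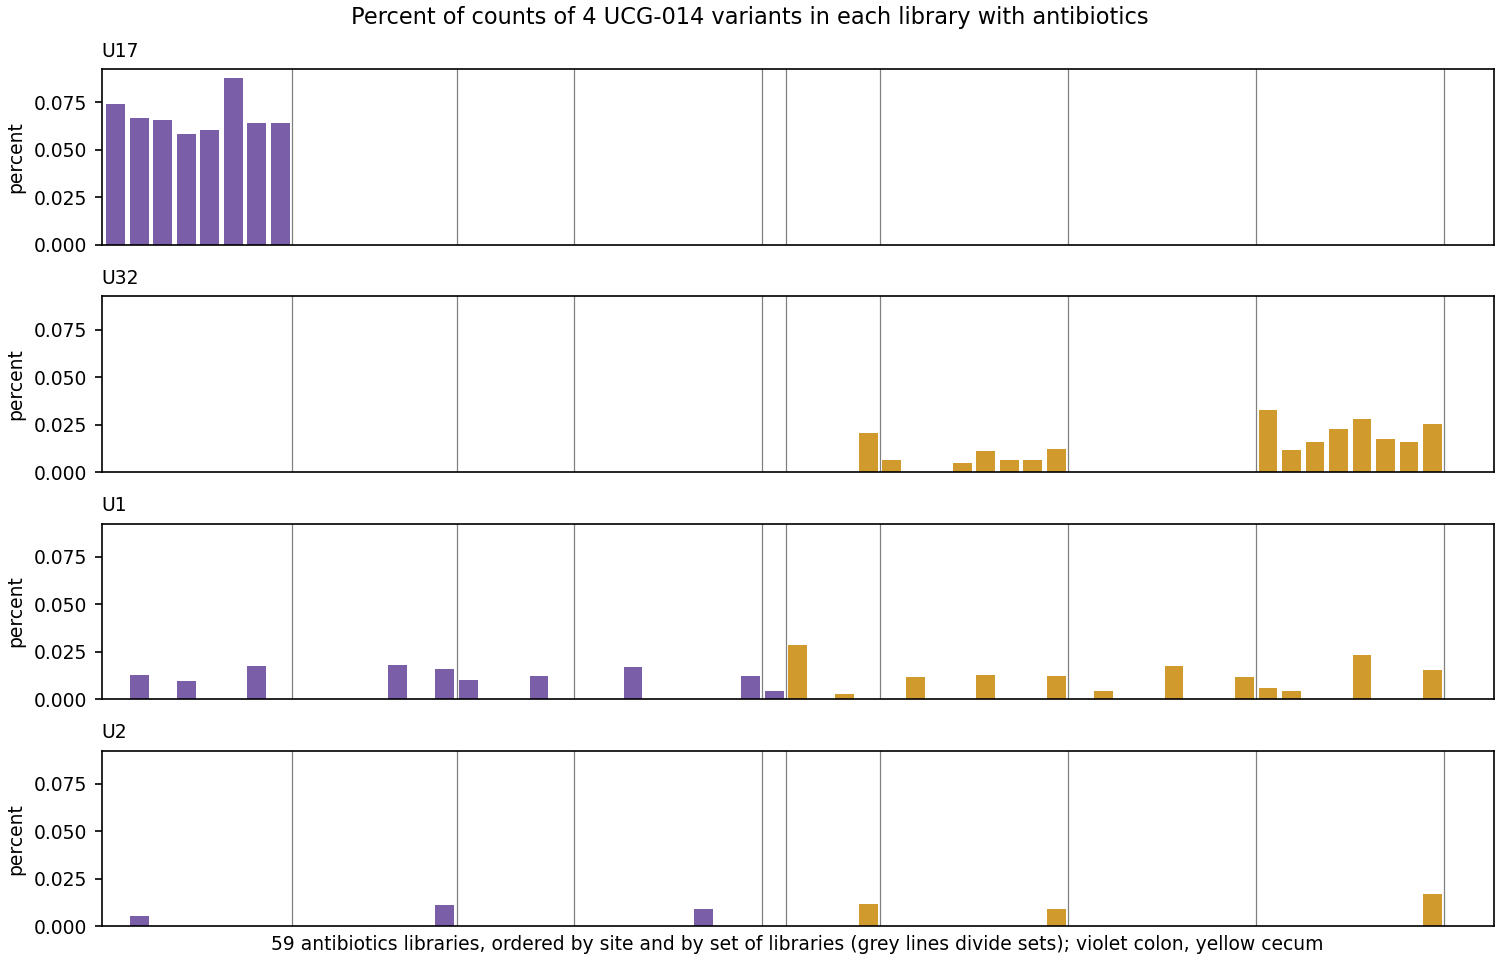
Percent of counts of U17, U32, U1 and U2 in each of the 59 antibiotics libraries (colon violet, cecum yellow), ordered by site and set of libraries with grey lines between sets. U17 fills 1 set at 0.0582% to 0.0881% and is at 0 elsewhere, U32 fills another set at 0.0117% to 0.0328%, and U1 and U2 are scattered over sets.

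Without U17 and U32 the LD24/0 libraries of the colon with antibiotics held between 0% and 0.0233% of UCG-014, against 0.0642% to 0.0911% with them, and overlapped every other light cycle. The part of library sets in the remaining UCG-014 reads was not tested. In the 2 cecum antibiotics libraries with the fewest reads of reagent and environmental genera, LD24/0 replicates 5 and 6, UCG-014 had 5 and 0 counts. In the same 2 libraries vadinBB60 had 874 and 461 counts, or 1.26% and 0.736%. UCG-014 was also at 0 in cecum antibiotics libraries with more such reads, LD12/12 replicate 1 (2.41%) and LD16/8 replicate 1 (2.57%). In the colon with antibiotics, where such reads made up at least 1.70% of each library, it was at 0 in 6 libraries.

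Between sites, single variants were tested as well. On chow 26.4% of 1700 variants passed, 155 higher and 294 lower in the cecum. Of 57 UCG-014 variants 9 passed, all 9 lower, and of 44 vadinBB60 variants 10 passed, 7 higher and 3 lower. U15 was found in 7 of 30 colon and 2 of 31 cecum libraries on chow and so passed the filter through the colon. V65 and V73, in 10 and 6 of 31 cecum libraries on chow, were listed at 0 in every other library of the series. V2 was lower in the cecum on chow (a log2 change of -3.40, edgeR adjusted p = 0.00101), and with antibiotics the test gave -0.99 (adjusted p = 0.580). With antibiotics 47.0% of 598 variants passed, 187 higher and 94 lower in the cecum. Of 30 vadinBB60 variants 8 passed, all 8 higher, and of 6 UCG-014 variants 2 passed, U17 lower and U32 higher. Among the former was V31, found in 1 of 29 colon and 6 of 30 cecum libraries, which therefore passed the filter through the cecum alone. V60 was found in 6 cecum libraries with antibiotics and in no other library.

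Single vadinBB60 variants were also examined by light cycle. In the cecum with antibiotics 13 of 19 vadinBB60 variants passed for any light cycle, where 33.8% of 402 variants passed, while 0 of 2 UCG-014 variants passed in edgeR (1 at an unadjusted p under 0.05, and 0 with TMMwsp factors). With the stricter filter 1 of 4 vadinBB60 variants passed, beside 26 of 141 for all variants. V10 was found in 5 of 6 libraries of LD0/24, with a median of 0.151% and a highest share of 1.02%, and in 3, 1, 1 and 0 of 6 libraries of LD8/16, LD12/12, LD16/8 and LD24/0, with at most 0.0301% (edgeR adjusted p = 4.86e-05). V6 was found in 6 of 6 libraries of LD0/24, at 0.0191% to 0.446%, and in 4 of 6 of LD16/8, with up to 1.99%, but in 1 of 6 of each other light cycle, with at most 0.0135% (adjusted p = 0.00101). V10 was thus found mainly in LD0/24, and V6 in LD0/24 and LD16/8. The sets of libraries and the light cycles overlap in this site and diet. LD12/12 lay wholly in 1 set, LD8/16 in another and LD0/24 in 2, and with set of libraries as a block the number of genera called for light cycle there went from 28 to 0. That fit tests fewer differences than the main test. LD0/24 and LD8/16 share no set with LD12/12, LD16/8 or LD24/0 there and could not be compared with them. The block was not run for variants.

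**Figure D5:**
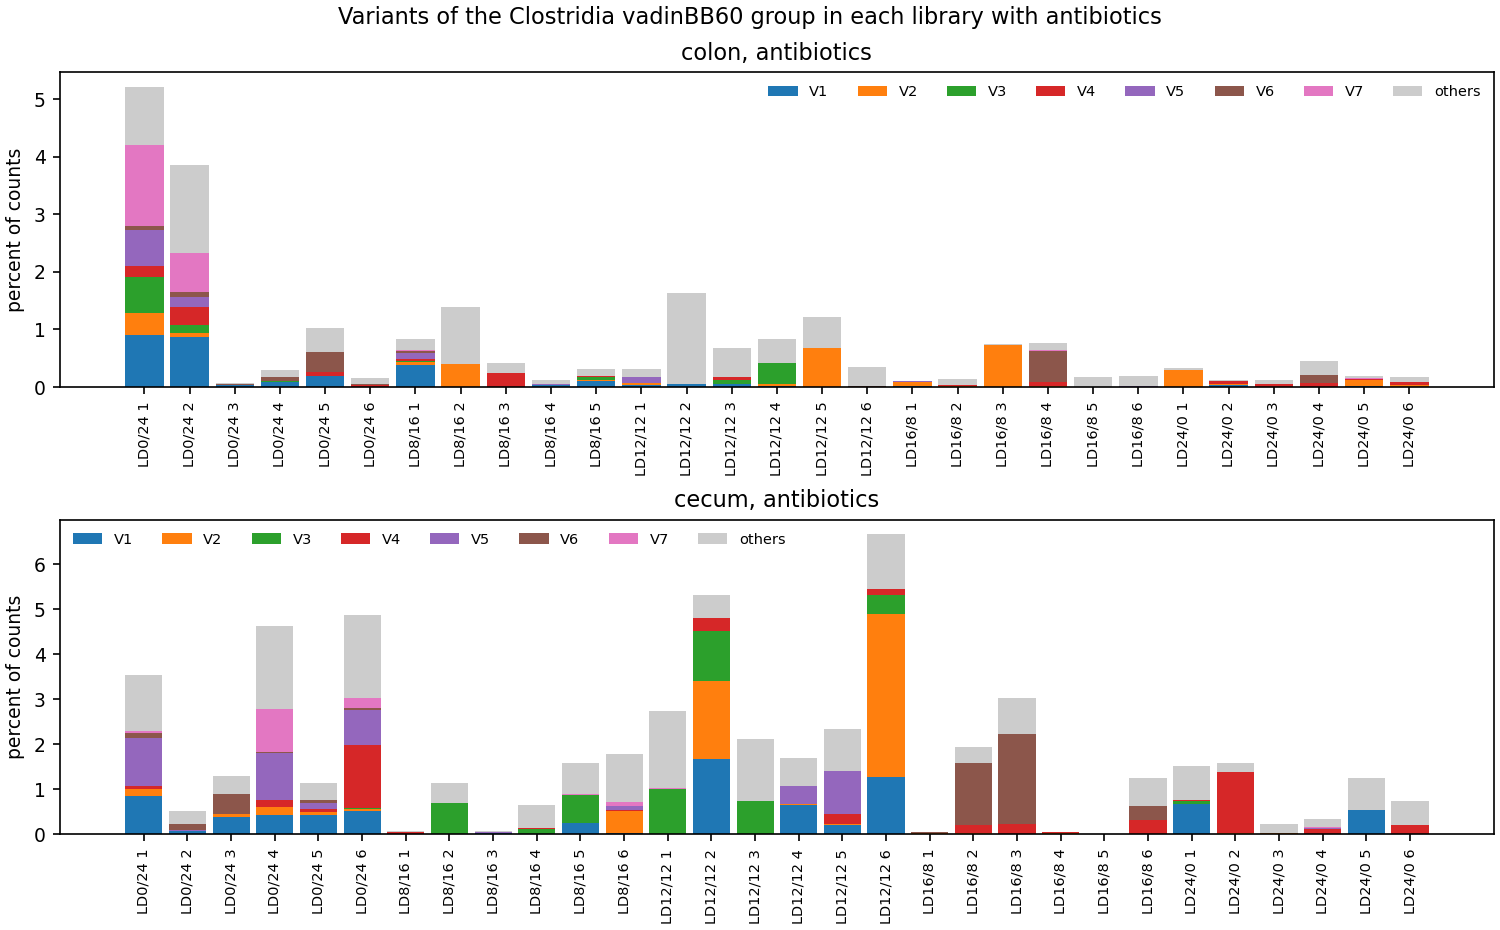
Percent of counts of vadinBB60 in each antibiotics library of the colon (top) and the cecum (bottom), stacked by variant (V1 to V7 in colours, all others grey) and ordered by light cycle and replicate. Different variants lead in libraries of the same group, as with V2 in LD12/12 replicate 6 and V3 in LD12/12 replicate 3 of the cecum, and V6 leads in LD16/8 replicates 2 and 3 of the cecum.

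On chow, 4 of 31 UCG-014 variants and 0 of 18 vadinBB60 variants passed for any light cycle in the colon, where 16.5% of 1053 passed (edgeR, with 4 of the 18 at an unadjusted p under 0.05 and 0 with TMMwsp factors). The 2 with the smallest p were U62, in 4 of 6 libraries of LD24/0 and 2 of the other 24, and U22, in 4, 4 and 3 of 6 libraries of LD0/24, LD8/16 and LD24/0 and in 0 of LD12/12 and LD16/8 (adjusted p = 0.0337 and 0.0344). In the cecum 5 of 24 UCG-014 and 4 of 25 vadinBB60 variants passed, where 19.1% of 923 passed. Among them U6, found in 5 of 31 libraries (edgeR adjusted p = 0.00425), and V34, found in 6 (adjusted p = 0.00723), rest on few libraries. In the colon with antibiotics U17 was the 1 of 2 UCG-014 variants to pass, where 29.4% of 306 passed.

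The number of variants per library followed the genus level for UCG-014 and hardly for vadinBB60. UCG-014 had a median of 18.5 variants in the colon and 15 in the cecum on chow, and of 1 and 2 with antibiotics. The medians of vadinBB60 were 9.5 and 12 on chow and 7 and 11 with antibiotics, although its share was several-fold higher with antibiotics. Expected numbers at a common depth of 39157 counts were nearly the same (18.2, 14.7, 1 and 1.89 for UCG-014, and 9.08, 11.9, 6.88 and 10.9 for vadinBB60), close to the numbers observed. In libraries with at least 50 counts of the genus, the leading variant held a median of 46.1% of vadinBB60 counts in the colon with antibiotics and 40.8% in the cecum, against 25.9% and 24.2% on chow.

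Libraries differed widely in which variants they held. In the cecum with antibiotics, 12 different variants led vadinBB60 in 27 libraries with at least 50 counts, and V1, in the lead in 5, led most often. The share of vadinBB60 composition that 2 libraries had in common had a median of 20.4% for pairs of the same light cycle and 11.0% for pairs of different light cycles there. In the colon with antibiotics the medians were 14.8% and 10.2%. On chow such a gap was absent: they were 9.65% and 8.98% for vadinBB60 in the colon, 7.18% and 11.1% in the cecum, and 12.5% and 13.5% for UCG-014 in the colon. Sharing within a light cycle was thus higher with antibiotics in vadinBB60, as a description with no test, and libraries of 1 light cycle there mostly shared a set as well.

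Across the 20 group means, the genera whose shares were most like those of UCG-014 among 120 genera were Candidatus_Arthromitus, the segmented filamentous bacteria of the gut wall (Spearman rho 0.869), Tuzzerella (0.865), Bacteroidetes_unclassified (0.858) and Ruminococcus (0.851). All 4 had lower means with antibiotics in both sites. For vadinBB60 they were Parabacteroides (0.787), a genus of gut Bacteroidales, and the Enterobacterales Pantoea (0.594), Klebsiella (0.579) and Enterobacter (0.574), all 4 with higher means with antibiotics in both sites. Parabacteroides averaged 31.4% of counts in the colon and 64.4% in the cecum with antibiotics, against 1.02% and 0.454% on chow. UCG-014 and vadinBB60 themselves correlated at -0.777. These values describe 20 means that share diets, sites and sets of libraries, and carry no p.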

How the data were processed

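Each sample's read counts per 16S variant were used as the authors deposited them, whole and not normalised, together with their taxonomy table. Per the labels' protocols, DNA was extracted with a stool kit, from samples the protocol calls rumen digesta, and sequenced from PacBio SMRTbell libraries. No source used here names the denoiser, the primers, the taxonomy database or their versions. All 120 columns matched a sample title. No pair of samples had identical counts (301 pairs within groups). The 629 variants with no taxon, at most 0.441% of a sample's counts, were left out of the tests and kept in the sample totals.

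The members, lists and tests were chosen with earlier results of these data known. Counts were summed by genus (583 names) or kept per variant. Features with at least 3 counts in at least 5 samples were tested with edgeR 4.0.16 (R 4.3.3, robust quasi-likelihood fit, library size equal to the total count, no composition factor) and adjusted by Benjamini-Hochberg over all features of a fit, with a threshold of 0.05. Diet was tested within site and site within diet with light cycle as a covariate, light cycle within site and diet, and interactions across them. Alternatives were TMMwsp factors, DESeq2 1.42.0, limma 3.58.1 on centred log-ratios (0.5 added to each count), no filter and a stricter filter (10 counts in 10 samples), replicate and set blocks, and samples left out. Descriptions used Python 3.11.15.

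Sets of libraries were built from 381 variants outside the 2 genera, each found in at least 7 libraries at up to 2% of counts with a coefficient of variation of at most 0.5. Libraries were clustered on the presence of these variants (Jaccard distance, average linkage) and the tree was split until no set exceeded 8 libraries. Libraries entered with over 0.3% of counts in 69 variants of 11 genera that earlier work on these data named as reagent or environmental genera. Named variants were, per genus, the 4 largest on chow and the 4 largest with antibiotics, and per fit the 2 with the smallest p in each direction. Named genera were the 4 most alike by Spearman correlation among those with a mean share of at least 0.1% in a group, and the 3 largest of the Clostridia list on chow. Deviations of genera from their group means were correlated between same-numbered colon and cecum samples. On chow the median was 0.050 and the highest value 0.508, with 9 of 30 pairs above 0.1. With antibiotics the median was -0.055 and the highest value 0.110, with 1 of 29 pairs above 0.1. The labels pair no samples, so the sites were tested as unpaired, and whether some chow pairs share a mouse was not tested. The fit was tested on simulated data with 8-fold changes: for antibiotics against chow in the colon it recovered 100% of 80 changed genera among 238 and called 1.27% of the unchanged ones, and recovered 98.9% of 184 changed variants among 1124 and called 0.319%. The simulation had about as many rises as falls, a single dispersion and no sets of libraries. In the colon data 81.0% of genera passed, 43 upward and 166 downward. These rates therefore check that the fit runs as meant and do not give the rate of false calls in the data.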

Additional observations from a re-analysis of the deposited data

Results flagged for a closer look

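Of 40 groups of samples, 20 for each genus, 4 held a sample whose gap to its nearest neighbour was large against the range of the group. The rule flags about 1 in 20 groups of normally distributed values. The shares are skewed and partly at 0, so that rate does not apply to them and the number flagged is a description. In the colon on chow under LD0/24, replicate 4 held 11.39% of UCG-014 against 4.23% in the next sample, and 0.977% of vadinBB60 against 0.104%, so both come from the same library. In the colon on chow under LD12/12, replicate 3 held 0.6425% of vadinBB60 against 0.241% in the next, with 0.693% of UCG-014. In the colon with antibiotics under LD12/12, replicate 6 held 0.0636% of UCG-014 against 0.0169% in the next, a group in which 3 of 6 samples were at 0. The sample totals behind these values, from 56993 to 64460, lay within the range of the series.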

How the results depend on the processing

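For the 15 main results of the 2 genera there were 369 alternative values. Of these, 348 kept their side of the threshold and, where the result has one, their direction. A further 8 reversed, 4 came to pass and 9 no longer passed. Results for any light cycle have no direction, so only their side of the threshold was compared. Many of their alternatives left out 1 library each, also for results that never passed. Both diet changes kept direction and call in both sites under all alternatives that were run. For diet in the cecum none of these took account of set of libraries, since no cecum library on chow was placed in a set. With group means averaged over light cycles, chosen after seeing the data, vadinBB60 rose by 2.09 in the colon (adjusted p = 0.0390) and by 3.58 in the cecum (0.00263). For site on chow, UCG-014 reversed to 0.53, 0.12 and 0.32 with TMMwsp factors, DESeq2 and centred log-ratios, and vadinBB60 came to pass there at 1.20, 0.85 and 1.06; without each replicate number in turn it ran from -0.044 (without replicate 5) to 0.63. For site with antibiotics, UCG-014 reversed to 0.24 with the replicate block and, in alternatives chosen after seeing the data, to 0.46 without the libraries with U17, 0.11 without the counts of U17 and U32, and 0.083 with set as a random block. The difference of vadinBB60 no longer passed with centred log-ratios (0.88), group means (2.05, adjusted p = 0.0615) or set as a random block (0.55). UCG-014 for any light cycle in the colon on chow had adjusted p of 0.0723 with centred log-ratios, 0.133 with the replicate block, 0.577 with the set block and 0.00335 to 0.334 with samples left out (0.0782 without replicate 1). For vadinBB60 in the cecum with antibiotics it was 0.0465 with no filter. The site by diet interaction reversed to -1.76 (adjusted p = 0.0113) and -0.23 for UCG-014 and to -0.48 for vadinBB60 with TMMwsp factors, or centred log-ratios for the second of these. The replicate block changed no other call of the 2 genera. The cause of these changes was not tested.

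Counts of genera called moved by over 1.5 times in these cases. With the stricter filter, which tests fewer genera, they were 132 for 209 and 144 for 233 (diet), 65 for 118 and 57 for 99 (site), and 32 for 49, 26 for 46, 0 for 29 and 14 for 28 (light cycle in colon chow, colon antibiotics, cecum chow and cecum antibiotics). With no filter they were 186 (site, chow), 95 (colon chow), 128 (cecum chow) and 55 (cecum antibiotics). The set block left 0, 3 and 0 in colon chow, colon antibiotics and cecum antibiotics and could not be fitted in cecum chow. It tests fewer light-cycle differences than the main test, since some light cycles are not linked by any set. The replicate block gave 26 in colon antibiotics and 16 in cecum chow, DESeq2 11 and centred log-ratios 16 in cecum chow, group means 59 for site on chow, and centred log-ratios 68 for 30 and 47 for 28 in the diet by light interactions. Leaving out a replicate number brought light-cycle counts as low as 30, 23, 15 and 10. The stricter filter left 0 to 7 called variants per genus and comparison. Among the cecum samples of the same diet and light cycle, colon samples correlated best with their own number in 8 of 30 chow pairs and in 0 of 29 with antibiotics. With so few candidates some such matches occur without any pairing, and an excess over that was not tested. Depth limits UCG-014 with antibiotics, where 1000 counts remain in 59 libraries.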
